A study of Homo sapiens with 8 samples.

Results

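PGR encodes the progesterone receptor (PR), and the binding of PR and of the glucocorticoid receptor (GR) at PGR itself was read from peak lists of ChIP-seq, which sequences the DNA pulled down together with a receptor by an antibody. Peaks were taken from a stretch of chromosome 11 from 100850355 to 101050544 in the hg19 build, which is the body of PGR with 50 kb on each side. PGR lies on the minus strand and its start was placed at 101000544, so that lower positions lie downstream of the start. Of 94404 peaks in 8 lists, 7 overlapped this stretch by at least 1 bp, and merging the overlapping ones left 4 sites.

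PR is a nuclear receptor that enters its active form when it binds progesterone or a progestin. It then binds DNA at hormone response elements, which GR, its close relative, also recognises. PR is made as a long form, PR-B, and a shorter form, PR-A, from a distal and a proximal promoter of the gene, and in breast epithelium PGR is a classical target of the estrogen receptor.

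All libraries came from derivatives of T47D, an established human breast cancer line known for making much PR. A1-2 is the derivative in which the series studies both receptors, known as a T47D clone with an introduced GR gene, which the labels do not state. The labels use MTVL WT, another T47D derivative, as the control. Both were held in medium with hormone-stripped serum and then without serum. The groups were A1-2 cells given dexamethasone (Dex, a synthetic glucocorticoid) at 10 nM for 60 min with GR precipitated, A1-2 cells given R5020 (a synthetic progestin) at 10 nM for 60 min with GR or with PR precipitated, MTVL WT cells (below, MTVL) given R5020 in the same way with PR precipitated, the matching untreated cells for each receptor and line, and input DNA of A1-2 cells. GR of MTVL cells was not analysed here. With 1 library per condition there were no replicates, and p-values are not given. Read depth was unknown. The lists held between 221 peaks (MTVL PR, untreated) and 43398 peaks (MTVL PR, R5020), so counts at PGR are set beside the whole list.

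PR was called at PGR after R5020 in both lines, GR after Dex, and neither receptor in a list of untreated cells. In A1-2 cells the GR list after Dex had 1 peak in the stretch, and the GR lists after R5020 and without hormone had 0 peaks each. The PR list of A1-2 cells had 2 peaks after R5020, against 0 in untreated cells. The PR list of MTVL cells had 4 peaks after R5020, against 0 in untreated cells. The input list, of A1-2 cells, had 0 peaks there, so no receptor peak of PGR lay at an A1-2 input peak. There was no input list of MTVL cells, so the 4 MTVL peaks were not checked against input of their own line. The plot of called peaks by list shows the sites gathered at the start of the gene, near its far end and beyond that end.

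**Figure D1:**
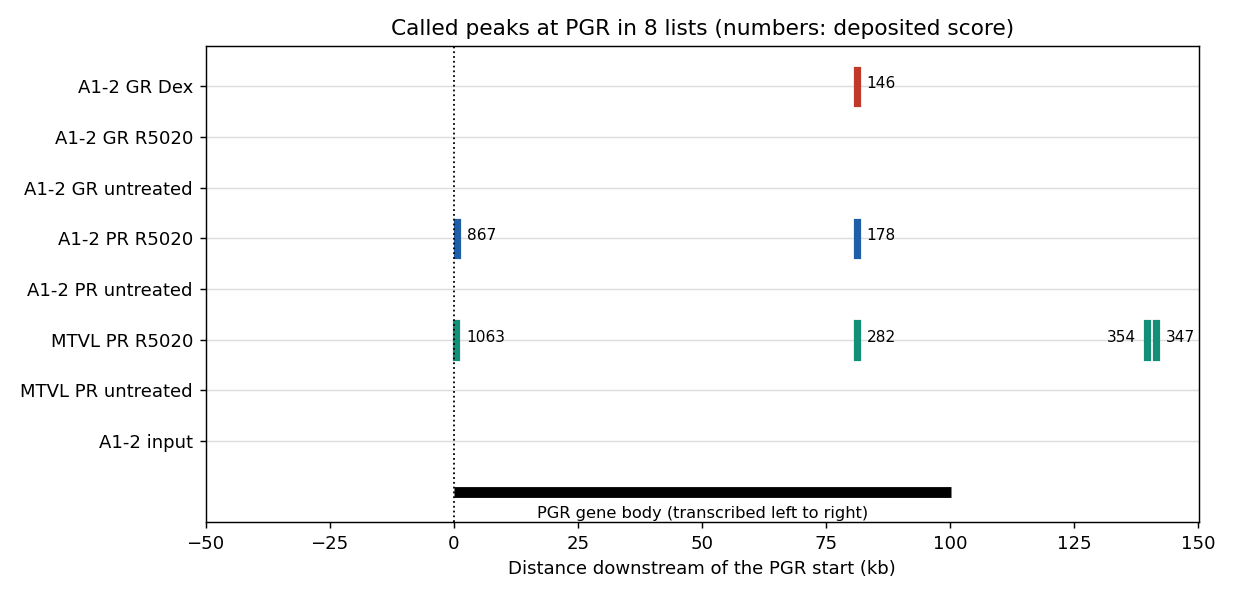
Called peaks in the 8 lists, 1 row per list, by distance downstream of the PGR start in kb, with the deposited score of each peak printed beside it and the gene body as a black bar. Peaks stand at the start, at 81.2 kb and, in the MTVL PR list after R5020 alone, at 139.6 and 141.5 kb, and the rows of untreated cells, of GR after R5020 and of input are empty.

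An empty stretch says little in a short list. Cut into tiles of the same length, 200190 bp, the genome gave 15137 tiles, of which 1.31% held a GR peak of untreated A1-2 cells, 1.96% a PR peak of untreated A1-2 cells and 1.28% a PR peak of untreated MTVL cells. For GR after R5020 the share was 4.0%, and for input 6.89%. The hormone lists filled more of the genome. At least 1 GR peak after Dex, as at PGR, was found in 47.1% of the tiles, at least 2 A1-2 PR peaks after R5020 in 39.0%, and at least 4 MTVL PR peaks after R5020 in 31.4%. Peak density at PGR was 5.0 per Mb for GR after Dex, against 6.11 per Mb over all chromosomes used. It was 9.99 per Mb for PR in A1-2 cells, against 9.42 over all, and 20.0 per Mb for PR in MTVL cells, against 14.3 over all. The number of peaks at PGR was thus one that a large part of the genome reached. Exactly the same 3 counts together, rather than at least as many, occurred in 127 tiles (0.839%), a narrower condition that is not comparable with those shares. A peak in each of these 3 lists was found in 6427 tiles (42.5%), and 88.1% of those had, like PGR, 0 peaks in the untreated lists and the GR list after R5020.

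The most prominent site lay on the start of the gene and was held by PR in both lines after R5020. In A1-2 cells the peak ran from 100999056 to 101000746 (score 867.49), that is from 202 bp upstream of the start to 1488 bp downstream of it. In MTVL cells it ran from 100999324 to 101000760 (score 1062.81), from 216 bp upstream to 1220 bp downstream. The peaks shared 1423 bp, which was 99.0% of the shorter one, with midpoints 141 bp apart. Their upstream edges lay 14 bp apart and their downstream edges 268 bp apart, so the outlines differed mainly inside the gene. The score is the authors' own value for a peak, taken as -10 times the log10 of its p, and ranks peaks within a list without measuring binding between libraries.

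Both peaks at the start were among the stronger and the widest of their lists. The A1-2 peak ranked 4556 of 28563 by score, above 84.0% of the list, and at 1691 bp it was wider than 98.0% of it. The MTVL peak ranked 8417 of 43398, above 80.6% of the list, and at 1437 bp it was wider than 96.6% of it. The median peak was 647.0 bp wide in the A1-2 list and 672.0 bp in the MTVL list.

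RefSeq gives 3 starts for PGR, and 2 of the promoters, from 250 bases before to 50 bases after a start, are shown because the PR peak lies at the start of the gene. They are written 5′ to 3′ on the minus strand of the GRCh38.p14 build, with matches to the GC box (GGGCGG) and to the estrogen response half-site (GGTCA), on either strand, in capitals. The first is that of the distal start, chr11:101129764-101130063, and the second that of a start 736 bp further downstream, chr11:101129028-101129327.
Distal start: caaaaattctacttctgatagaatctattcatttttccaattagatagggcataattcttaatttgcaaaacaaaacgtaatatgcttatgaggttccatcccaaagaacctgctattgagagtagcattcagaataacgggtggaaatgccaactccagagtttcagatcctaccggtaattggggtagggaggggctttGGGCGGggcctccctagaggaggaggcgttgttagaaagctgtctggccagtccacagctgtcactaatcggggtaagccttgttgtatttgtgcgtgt
Downstream start: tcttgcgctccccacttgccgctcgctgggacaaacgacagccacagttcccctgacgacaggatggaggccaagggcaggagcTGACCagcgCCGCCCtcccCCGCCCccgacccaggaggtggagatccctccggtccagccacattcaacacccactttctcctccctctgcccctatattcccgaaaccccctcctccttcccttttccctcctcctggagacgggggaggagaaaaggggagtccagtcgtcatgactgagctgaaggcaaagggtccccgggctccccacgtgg

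The promoters differ in composition, with 44.3% G and C around the distal start and 64.3% around the downstream one. The third start lies 750 bp from the distal one, so its promoter is nearly the same as the second. The hormone response element, searched as GNACA and TGTNC parted by any 3 bases, a pattern that is its own reverse complement, had 0 matches in each of the 3 promoters, and so had the half-site TGTTCT, which a full element may contain, on either strand. Of 35116 RefSeq promoters of the same length, 0.39% hold the element and 14.8% the half-site. The promoters cover only part of the PR peaks at the start, and the sequence under the rest of these peaks was not searched. The GC box, a site of the factor SP1, had 1 match at the distal start, 2 at the downstream one and 4 at the third, and 45% of all promoters hold it. The estrogen response half-site had 0 matches at the distal start and 1 at the downstream one, 166 bp before that start, and 37.4% of all promoters hold it. None of these motifs overlap one another in the sequences shown. The peaks are placed in hg19 and the promoters in GRCh38. The gene is 100190 bp long in both, but whether the spacing of the starts is the same in hg19 was not checked. With the same spacing, all 3 starts would lie inside both PR peaks.

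**Figure D2:**
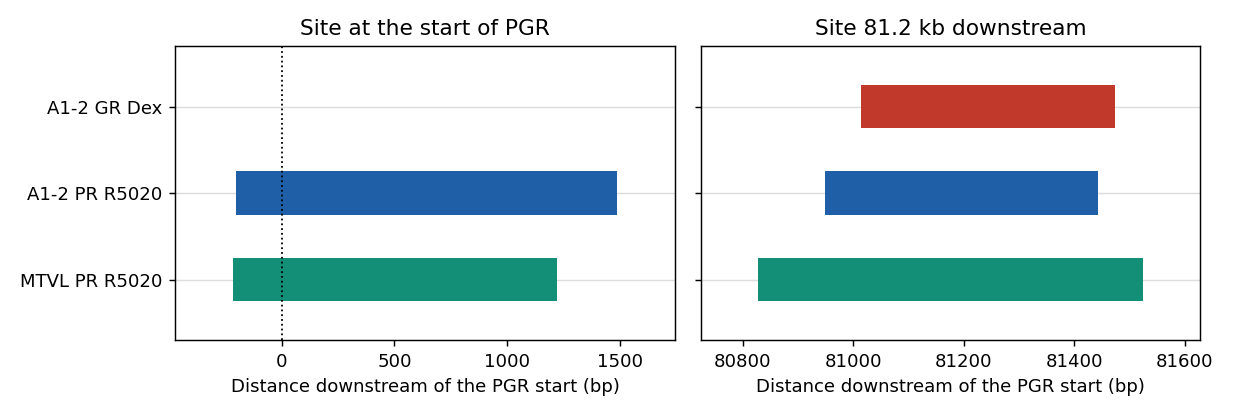
Extent of the peaks at both sites held by more than 1 list, by distance downstream of the PGR start in bp, with 1 bar per peak. At the start (dotted line) the A1-2 PR peak reaches 1488 bp and the MTVL PR peak 1220 bp into the gene with no GR peak, and at 81.2 kb the peaks of GR after Dex, A1-2 PR and MTVL PR lie on top of each other.

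No GR peak was called at the start of PGR, with Dex, with R5020 or without hormone. The nearest GR Dex peak was the one 81.2 kb into the gene. In the A1-2 list, PR peaks that scored in the same range were mostly shared with GR after Dex. In the MTVL list they lay at a GR Dex peak of A1-2 cells about as often as not. With each list divided by score into 10 classes of equal size, the A1-2 peak fell in class 9. Of the 2826 A1-2 PR peaks of that class, 80.0% lay at a GR Dex peak, and of the 4307 MTVL PR peaks of class 9, to which the MTVL peak belonged, 50.5% did. Among the 11505 merged regions with PR in both lines and no GR Dex peak, which made 22.4% of 51444 regions of the 3 hormone lists, the PGR start scored above 96.5% by its A1-2 peak and above 77.8% by its MTVL peak. The median of such regions was 193 in A1-2 cells and 461 in MTVL cells. The rank of the A1-2 peak is partly built in, since 95.6% of the A1-2 PR peaks of class 10 lay at a GR Dex peak and so fall outside this group. That the start was called in both lines was usual at its score, since 98.0% of the A1-2 peaks of its class lay at an MTVL PR peak and 89.2% of the MTVL peaks of its class lay at an A1-2 PR peak.

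**Figure D3:**
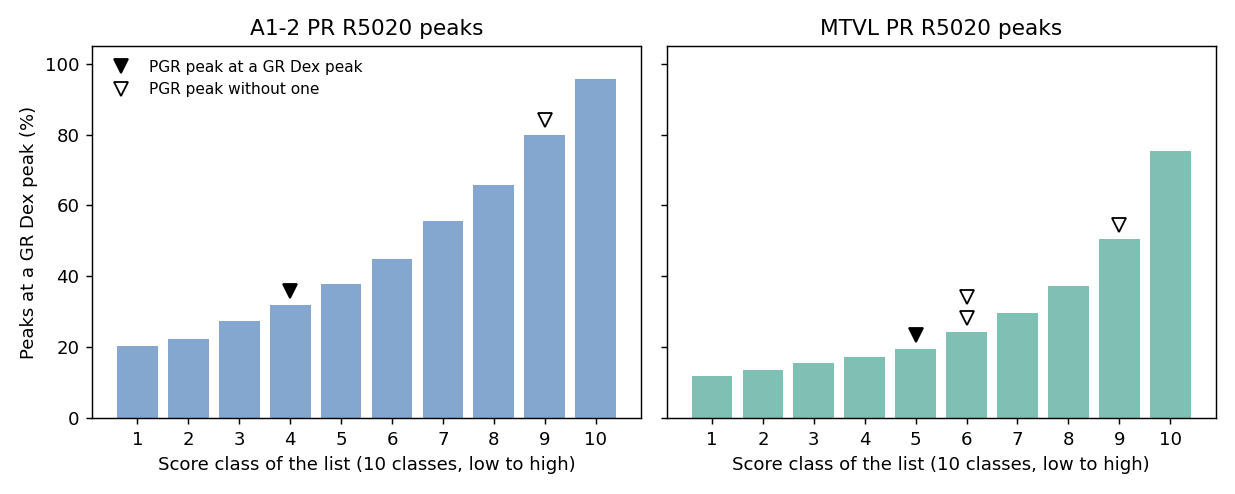
Percent of the PR peaks after R5020 that lie at a GR Dex peak, in 10 score classes of the A1-2 list (left) and of the MTVL list (right), from low to high. Triangles mark the classes of the PGR peaks, filled where the peak lies at a GR Dex peak: the start of PGR (open, class 9 in both lists) stands in classes where 80.0% and 50.5% do, and the site at 81.2 kb (filled) where 32.0% and 19.6% do.

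The second site lay within the gene, 81.2 kb downstream of the start and 19.0 kb before its end, and was the only one where GR was called. The GR peak after Dex ran from 100919071 to 100919531 (score 145.86). The PR peak of A1-2 cells after R5020 ran from 100919101 to 100919595 (score 178.47), and that of MTVL cells from 100919020 to 100919716 (score 282.12). The A1-2 peaks of the receptors shared 431 bp, 93.5% of the shorter one, with midpoints 47 bp apart. The PR peak of A1-2 cells lay wholly inside that of MTVL cells, with midpoints 20 bp apart, and so did the GR peak, with midpoints 67 bp apart. Whether the site is intronic or exonic was not determined, since no hg19 annotation was used here.

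This shared site scored below the median of each list, and nearest to it in the MTVL list. The GR peak scored above 32.6% of the GR Dex list and the PR peak above 36.1% of the A1-2 PR list. The MTVL peak scored above 46.7% of its list. At 461 bp the GR peak was narrower than most of its list, of which 8.47% were narrower still. Regions held by GR and by PR of both lines made 22.4% of the merged regions, and within that group of 11528 the PGR site scored above 22.2% by GR, 12.4% by PR in A1-2 cells and 19.4% by PR in MTVL cells. The medians of the group were 248, 546 and 914 in the same order. Low-scoring PR peaks lay at GR less often than high-scoring ones. Of the A1-2 PR peaks of its score class (class 4) 32.0% lay at a GR Dex peak, and of the MTVL PR peaks of its class (class 5) 19.6% did. In the other direction, 64.6% of the GR Dex peaks of its class (class 4) lay at a PR peak of A1-2 cells and 61.5% at one of MTVL cells. Between the lines, 77.7% of the A1-2 PR peaks of its class lay at an MTVL PR peak, and 44.6% of the MTVL PR peaks of its class lay at an A1-2 PR peak. When all lists were cut at a score of 200, a p of 1e-20 in place of 1e-10, the GR peak and the A1-2 PR peak were no longer called and the site remained in the MTVL list alone.

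**Figure D4:**
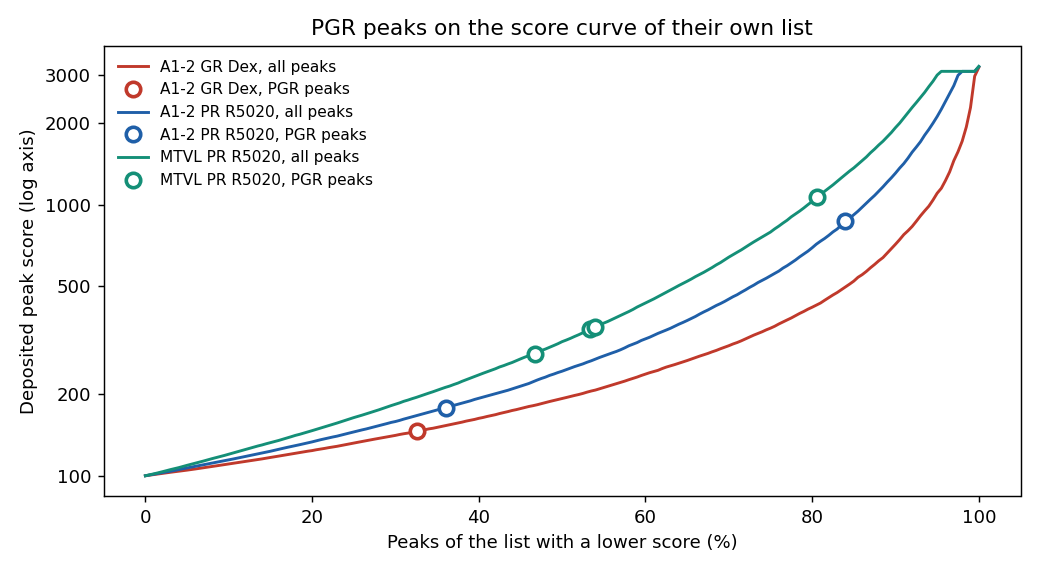
Deposited score on a log axis against the percent of peaks of the same list that score lower, for GR after Dex and PR after R5020 in A1-2 cells and PR after R5020 in MTVL cells (lines), with the peaks at PGR as circles. The peaks at the start sit at 84.0% and 80.6% of the A1-2 and MTVL PR lists, and all others sit at 54.0% or lower.

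The remaining sites lay beyond the end of PGR and were called for PR in MTVL cells alone. One ran from 100860649 to 100861184 (score 354.17), 39.4 kb past the end of the gene, and the other from 100858793 to 100859265 (score 346.75), 41.3 kb past it. A gap of 1383 bp parted them, and 18.2% of the MTVL PR peaks after R5020 had another peak of the list at that distance or nearer. They scored above 54.0% and 53.4% of the list, which was more than the MTVL peak at the site shared with GR. Of the 4306 MTVL PR peaks in the same score class (class 6), 54.7% were called in A1-2 cells and 24.2% lay at a GR Dex peak, and at this pair 0 of 2 were. Sites held by PR of MTVL cells alone were the most frequent of the 3 kinds found at PGR, 18796 regions or 36.5% of all, with a median score of 186, and this pair scored above 79.0% and 78.3% of them. That group leaves out most top scorers, since 97.6% of the MTVL PR peaks of class 10 lay at an A1-2 PR peak.

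Counted over the stretch, 1 of 2 A1-2 PR peaks lay at a GR Dex peak (50%, exact 95% interval 1.26 to 98.7), against 48.2% of the whole list. In MTVL cells 1 of 4 PR peaks did (25.0%, 0.631 to 80.6), against 29.5% of the whole list. Of the A1-2 PR peaks 2 of 2 were also MTVL PR sites (15.8 to 100%), against 82.7% of the whole list, and of the MTVL PR peaks 2 of 4 were also A1-2 PR sites (50%, 6.76 to 93.2), against 53.8%. The single GR Dex peak lay at a PR peak in both lines, as did 73.8% of GR Dex peaks for A1-2 cells and 69.3% for MTVL cells. These shares were near those of the whole lists, and their intervals, which cover counting error only, were too wide to set PGR apart.

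Between the sites PGR was bare in every list. From the peaks at the start to those at 81.2 kb no peak was called over 79.3 kb, and from there to the pair beyond the gene none over 57.8 kb. Upstream of the peaks at the start, which reach 202 and 216 bp past it, no list had a further peak in the 50 kb counted. The nearest peak below the stretch belonged to the MTVL PR list, 199.4 kb downstream of the start (score 204.07), compared with 141.5 kb for the outermost peak inside it. Above it the nearest peaks stood 171.2 kb upstream of the start for GR after Dex (score 132.76), 171.2 kb for PR in A1-2 cells after R5020 (score 191.38), 169.7 kb for PR in MTVL cells after R5020 (score 621.6) and 169.4 kb for PR in untreated MTVL cells (score 166.69). In the RefSeq order of genes (GRCh38) the antisense gene PGR-AS1 overlaps PGR, and the next protein-coding gene on that side is TRPC6, which encodes a calcium-permeable channel.

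**Figure D5:**
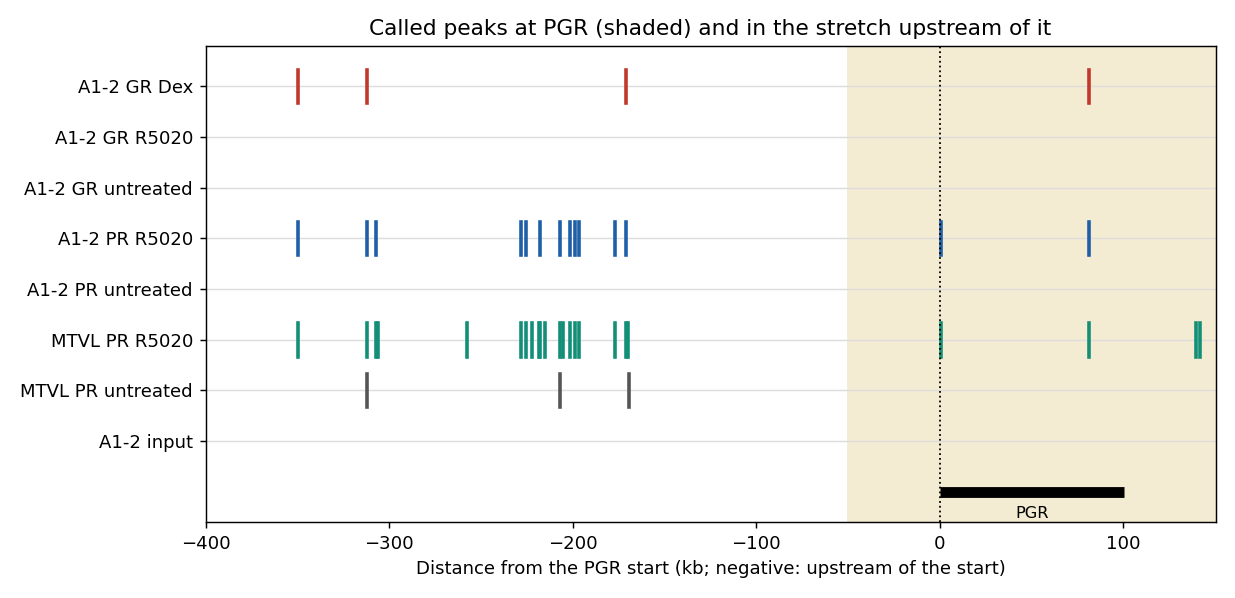
Called peaks in the 8 lists by distance from the PGR start in kb, with negative values upstream, the counted stretch shaded and the gene body as a black bar. Beyond an empty interval that reaches 168.5 kb upstream, PR peaks after R5020 crowd together, 12 in A1-2 cells and 19 in MTVL cells. Among them stand 3 PR peaks of untreated MTVL cells and 3 GR peaks after Dex, the latter far apart at 171.2, 312.2 and 349.5 kb.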

How the data were processed

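GR was precipitated with 2 antibodies mixed together and PR with 1 antibody, per the labels. The build is hg19, and the tools named in the submitters' processing notes are bedtools, MACS 1.4.2 and Bowtie 1.1.1. The sources used here do not give their settings or the control library. Each deposited file lists the peaks of 1 library with a score, taken as -10 times the log10 of p because its lowest value is 100 and the deposited threshold is 1e-10.

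All deposited peaks that overlap the PGR stretch were kept. For overlaps over whole lists, peaks outside chromosomes 1 to 22 and X or at A1-2 input peaks were left out, while tiles, ranks, widths and densities use the deposited lists. Tiles run to the last peak of a chromosome and include unmappable parts. Sharing means an overlap of 1 bp or more. Shares have exact (Clopper-Pearson) intervals. The gene table is of GRCh38, so 0 genes were placed in hg19 and no gene of like pattern was named. The rule was to account for every peak at PGR. The locus, lists and motifs were chosen with earlier results of these data known. The overlap step was tested on simulated data. Python 3.11.15, numpy 2.4.6, scipy 1.17.1, matplotlib 3.10.9 and bedtools 2.31.1 were used.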

Additional observations from a re-analysis of the deposited data

How the results depend on the processing

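Of 65 alternatives over 21 results, 56 stayed within 1.5 times for counts or within the 95% interval for shares, and 9 moved further. Many of the 56 could not move. A list with 0 peaks in the stretch stays at 0 under a score cut, without peaks at input or in the gene body alone. Dropping peaks at input could change no count, since the input list had 0 peaks there. Sites held by PR of MTVL cells alone went from 2 to 3 at the score cut, exactly at the limit. The intervals for shares were wide, so staying within them says little. When all lists were cut at a score of 200, the stretch held 0 GR Dex peaks in place of 1 and 1 A1-2 PR peak in place of 2, the number of sites held by GR Dex and PR of both lines became 0, the share of PR peaks at a GR Dex peak became 0% in A1-2 and 0% in MTVL cells, and the shares of GR Dex peaks could not be computed. The body of PGR alone held 2 of the 4 MTVL PR peaks. Tiles of chromosome 11 alone reached the counts of PGR more often, in 61.0% for GR Dex, 51.3% for PR in A1-2 cells and 36.6% for PR in MTVL cells. The settings that dropped peaks at input, asked for 50% of the shorter peak or for midpoints no more than 200 bp apart, moved the tiles, or took 100 kb on each side changed none of the results beyond those limits. No paired analysis was possible because each condition had 1 library. Depth was unknown, so a site without a call, such as the start of PGR for GR, may lie just under the threshold.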

Other observations

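Upstream of PGR, outside the stretch counted, PR peaks stood close together. The part from there to 400 kb before the start, 350 kb long and chosen after its values were seen, held 12 PR peaks of A1-2 cells and 19 of MTVL cells after R5020, and 3 GR peaks after Dex. Tiles of that length held as many in 4.84%, 2.16% and 29.4% of 8655 cases. The GR lists after R5020 and of untreated cells, the PR list of untreated A1-2 cells and the input list held 0 peaks there. Merged over the 3 hormone lists these made 19 regions, of which 3 were held by GR and PR of both lines. PR of both lines without GR held 9, and PR of MTVL cells alone held 7. Over all 51444 regions the shares of these kinds were 22.4%, 22.4% and 36.5%, in the same order. Every A1-2 PR peak there lay at an MTVL PR peak, as did 82.7% of the whole A1-2 PR list. At 196.5 kb upstream the PR peaks scored 563.85 in A1-2 and 3100.0, a value that many of its strongest peaks share, in MTVL cells. At 312.1 kb the PR peaks scored 1432.4 in A1-2 and 2524.09 in MTVL cells, and GR after Dex was called there with 404.61. At 177.1 kb they scored 1148.7 in A1-2 and 2794.07 in MTVL cells, with no GR peak. In both lines these sites thus scored higher than the peak at the start of PGR, except that at 196.5 kb the A1-2 peak scored lower.

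This upstream part also held 3 of the 221 PR peaks called in MTVL cells without hormone. They lay at 169.4 kb from 101169008 to 101170950 (score 166.69), at 206.8 kb from 101206697 to 101207913 (score 185.33) and at 312.1 kb from 101312080 to 101313252 (score 161.34). Each overlapped an MTVL PR peak after R5020, the last 2 also overlapped an A1-2 PR peak after R5020, and the one at 312.1 kb overlapped a GR Dex peak. How often the peaks of this untreated list overlap the hormone lists elsewhere was not computed, so these overlaps do not set the locus apart. Of 8655 tiles of this length, 7 (0.0809%) held at least 3 such peaks. Since the part was chosen after its values were seen, this share does not show that the locus is unusual. These peaks were 1943, 1217 and 1173 bp wide, in the same order. The median width was 1242.0 bp in their list, 1829.5 bp in the A1-2 input list and 672.0 bp in the MTVL PR list after R5020. There was no input list of MTVL cells, so whether they reflect background of that line was not tested. With 1 library, whether they would be called again was not tested.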
